A study of Mus musculus with 18 samples.

Results

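Condensins are the protein machines that fold chromatin into compact mitotic chromosomes, and the genes examined here are the 8 that encode the subunits of mouse condensin I and condensin II. They were taken by symbol from 50689 features of a count table, where all 8 were present as mouse Ensembl identifiers. The table comes from RNA sequencing of muscle stem cells (satellite cells) of the tibialis anterior of C57BL6 mice, dividing in culture. The 9 control libraries were from Hoxa10f/f cells, in which both copies of the homeobox gene Hoxa10 carry Cre target sites. The other 9 libraries, labelled scKO, were Pax7-CreERT2/+;Hoxa10f/f, with a tamoxifen-activated Cre expressed from Pax7, and were given 4-hydroxytamoxifen at 1 µM for 2 days. Both groups thus carry the same Hoxa10 allele, Cre is made only in cells that express Pax7, and the labels give no 4-hydroxytamoxifen for the controls, so genotype, Cre and drug cannot be told apart. The labels leave unsaid whether each library was its own animal or culture, and the p-values below therefore measure only the spread between these libraries.

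Each condensin is built on the same pair of ATPases, Smc2 and Smc4, whose long coiled coils form a hinged ring. A kleisin subunit closes the ring and binds a pair of HEAT-repeat proteins that grip DNA. In condensin I these are Ncaph (the kleisin), Ncapd2 and Ncapg, and in condensin II they are Ncaph2, Ncapd3 and Ncapg2. Condensin II is nuclear through interphase and begins compaction in prophase, whereas condensin I reaches the chromosomes after the nuclear envelope breaks down. Dividing cells, satellite cells among them, rely on condensin to segregate their chromosomes.

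The RefSeq promoter table for GRCm38.p6 holds windows from 250 bases before to 50 bases after the start site for 7 of the 8 genes, all but Smc4. Genes of the G2 and M phases are often controlled through a cell cycle homology region (CHR) and CCAAT boxes, and genes of S phase through E2F sites, so these words were looked for on both strands: TTTGAA or TTCGAA for the CHR, CCAAT, and TTCCCGC or TTGGCGC for E2F. The reverse complement of CCAAT can share letters with the second E2F word. The promoters of 4 genes are shown because they contrast the HEAT-repeat genes of condensin I, which differed most in the deep libraries described below, with Ncapg2 and the kleisin Ncaph2 of condensin II. Matches are in capitals. They are Ncapd2 (chr6:125191537-125191836, minus strand), Ncapg (chr5:45669675-45669974, plus strand), Ncapg2 (chr12:116405186-116405485, plus strand) and Ncaph2 (chr15:89355469-89355768, plus strand).
Ncapd2: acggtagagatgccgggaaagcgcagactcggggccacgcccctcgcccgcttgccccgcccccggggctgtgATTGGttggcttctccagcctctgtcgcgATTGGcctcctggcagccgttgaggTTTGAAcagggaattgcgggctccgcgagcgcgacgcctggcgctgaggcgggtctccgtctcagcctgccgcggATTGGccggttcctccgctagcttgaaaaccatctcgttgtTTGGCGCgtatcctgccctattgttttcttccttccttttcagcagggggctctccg
Ncapg: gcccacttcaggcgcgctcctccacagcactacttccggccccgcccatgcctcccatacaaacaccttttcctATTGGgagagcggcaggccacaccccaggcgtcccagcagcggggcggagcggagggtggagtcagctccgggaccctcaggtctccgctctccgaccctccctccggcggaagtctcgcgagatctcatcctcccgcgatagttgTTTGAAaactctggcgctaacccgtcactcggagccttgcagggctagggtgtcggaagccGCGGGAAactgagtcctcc
Ncapg2: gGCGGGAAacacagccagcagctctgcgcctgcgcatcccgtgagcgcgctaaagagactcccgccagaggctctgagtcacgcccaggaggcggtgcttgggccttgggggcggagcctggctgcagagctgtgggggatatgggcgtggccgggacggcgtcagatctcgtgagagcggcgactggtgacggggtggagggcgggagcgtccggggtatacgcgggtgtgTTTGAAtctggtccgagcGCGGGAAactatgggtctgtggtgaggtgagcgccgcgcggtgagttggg
Ncaph2: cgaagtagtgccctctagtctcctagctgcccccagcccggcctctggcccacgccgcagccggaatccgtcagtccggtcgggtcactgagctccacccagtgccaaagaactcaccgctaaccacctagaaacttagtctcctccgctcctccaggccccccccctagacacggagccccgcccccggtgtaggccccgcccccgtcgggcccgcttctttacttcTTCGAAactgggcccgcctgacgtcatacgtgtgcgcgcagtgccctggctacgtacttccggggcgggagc

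A CHR word was found in the windows of 6 of the 7 genes, against 19.2% of all 32851 promoter windows, a CCAAT word in 3 of 7 against 37.4%, and an E2F word in 5 of 7 against 6.81%. The 7 genes have 8 windows, and a gene was counted if any of its windows held the word, whereas the shares are per window. Ncapd2 and Ncapg, the HEAT-repeat genes of condensin I, held all 3 kinds of word, as did 0.371% of all windows. In Ncapg the CHR word begins 30 bases before the start site, in Ncapg2 18 bases and in Ncaph2 22 bases before it. The CHR word of Ncapd3 lay in the second of its 2 windows. Ncaph2 held neither a CCAAT nor an E2F word in this window, and Ncaph held only an E2F word. A match is a string of letters and not a measured binding site.

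Libraries differed widely in depth, and replicates spread more in the shallow ones, with an edgeR biological coefficient of variation of 0.25 against 0.10 in deep libraries. Total counts of unique molecular identifiers ranged from 420197 to 5986128. The 5 libraries over 2000000 counts (control 1 and 2, scKO 6, 7 and 9) are called deep and the other 13, with at most 968559, shallow. Hoxa10 checked the labels: it was counted 209 to 328 times in deep controls and 48 to 75 times in deep scKO libraries, and 11 to 36 against 1 to 3 times in shallow ones (log2 fold change -2.54, SE 0.25, edgeR adjusted p = 3.01e-06). The 8 condensin genes together took 0.0840% to 0.0941% of counts in deep controls and 0.0615% to 0.0685% in deep scKO libraries. In shallow libraries they took 0.0388% to 0.0643% and 0.0324% to 0.0518%, and those ranges overlapped. Levels are given as CPM on TMM-scaled library totals and are compared within a depth class only. Markers of muscle precursors, 9 genes, summed to 2761 to 3499 CPM in deep and 8112 to 12127 CPM in shallow libraries, so CPM levels differed between the classes also outside the condensin genes. Leukocyte markers summed to at most 17.6 CPM and endothelial ones to at most 54.1 CPM over 6 genes each, and no marker was at 0 in every library. The smooth muscle list, which includes the muscle gene Des, summed to 1039 to 6086 CPM. Schwann cell markers summed to 39.5 to 57.4 CPM in deep controls and 75.1 to 112.6 CPM in deep scKO libraries, and fibro-adipogenic markers to 44.8 to 50.4 and 56.3 to 67.4 CPM, so both lists were higher in the deep scKO libraries. In shallow libraries the Schwann ranges, 87.7 to 397 and 48.0 to 191 CPM, overlapped, and so did the fibro-adipogenic ones. Their part in the results below was not tested.

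All 8 condensin genes had lower fitted levels in scKO than in control when the 18 libraries were compared with the depth class as a covariate. Of all 7662 genes tested, 51.6% had a negative value. The median log2 fold change was -0.38, against -0.01 over all genes. Ncapg and Smc4 fell, so that 2 of the 8 passed an adjusted p of 0.05, where 0.352% of all genes tested were called lower and 0.326% higher. At an unadjusted p under 0.05 there were 4 of the 8, against 11.9% of all genes. The other 6 had log2 fold changes from -0.56 to -0.09 and did not pass (edgeR adjusted p = 0.191 to 0.909). In bulk RNA, fewer dividing cells and less condensin mRNA in each dividing cell cannot be told apart.

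The 2 calls lay close to the threshold. The call of Ncapg did not survive leaving out control 1, 2, 3, 4 or 6, or scKO 2, 3, 5, 6, 7, 8 or 9 (edgeR adjusted p = 0.0524 to 0.285), and Smc4 without any of 15 libraries, all but control 7 and scKO 1 and 4 (edgeR adjusted p = 0.0524 to 0.164). Without the 4 shallow libraries that stood apart from the rest on the 2nd principal component (control 7, 8 and 9 and scKO 1), 3 genes fell, Ncapg (-0.90), Smc4 (-0.55) and Ncapd2 (-0.53), where 4.09% of all genes were called lower. The same 3 were called without scKO 1 alone, where Ncapd2 had -0.61 (edgeR adjusted p = 0.0246). The share of all genes called in that fit is not given here.

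**Figure D1:**
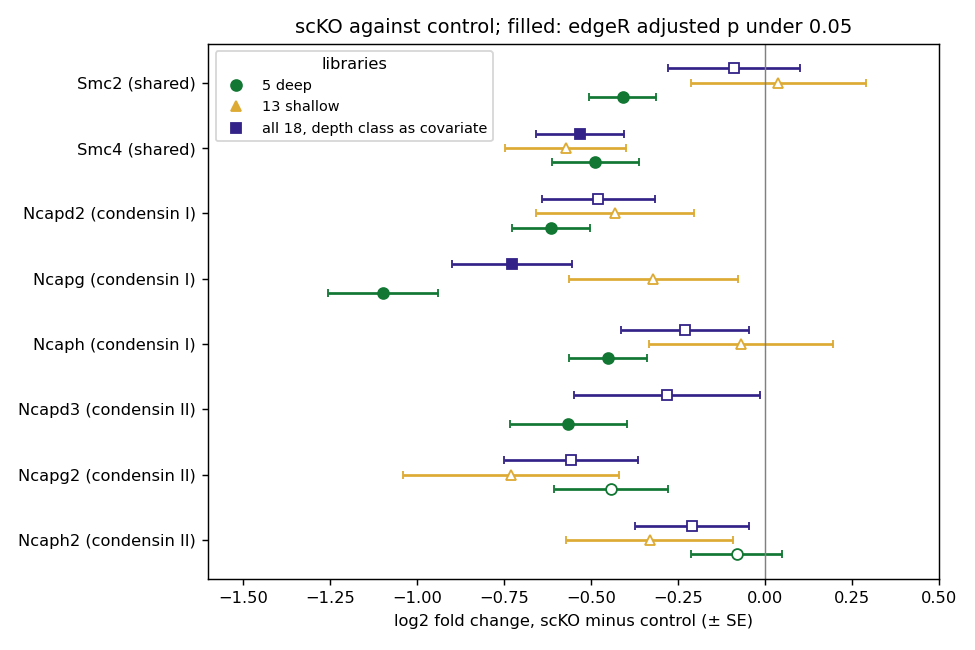
Log2 fold changes of the 8 condensin genes, scKO minus control, with bars of 1 SE, from the 5 deep libraries (circles), the 13 shallow libraries (triangles) and all 18 with the depth class as covariate (squares); filled symbols passed an edgeR adjusted p of 0.05. Ncapg in deep libraries lies farthest from 0, at -1.10, and Smc2 in shallow libraries is the only value above 0, at 0.04; Ncapd3 was not tested in shallow libraries.

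Smc4, the ATPase present in every condensin, had similar differences in deep and shallow libraries. The gene (ENSMUSG00000034349) spans 69004738 to 69034623 on the plus strand of chromosome 3 in GRCm38. Deep controls 1 and 2 had 107 and 119 CPM, and deep scKO 6, 7 and 9 had 74.4, 73.5 and 97.0 CPM. Every deep scKO library was thus below both deep controls. Shallow controls ran from 93.5 through a median of 128 to 157 CPM and shallow scKO libraries from 64.1 through 81.9 to 118 CPM. The shallow groups overlapped, although 4 of the 6 scKO libraries were below every shallow control. On the log2 scale the difference came to -0.53 over all libraries, with an SE of 0.13 and an edgeR adjusted p of 0.0486. It was -0.49 in the deep class (SE 0.13, edgeR adjusted p = 0.0220) and -0.57 in the shallow class (SE 0.17, edgeR adjusted p = 0.619). The deep call was lost without control 2, scKO 6 or scKO 7 (edgeR adjusted p = 0.0630 to 0.115).

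Smc2, the partner ATPase, fell in deep libraries and was not called in shallow ones. It lies on the plus strand of chromosome 4 (ENSMUSG00000028312; 52439243 to 52488260). Of the deep libraries, control 1 and 2 held 257 and 244 CPM and deep scKO 6, 7 and 9 held 203, 188 and 181 CPM, with no overlap. The fitted change there was -0.41 on the log2 scale (SE 0.09, edgeR adjusted p = 0.0116), and the call was lost without scKO 7 or 9 (edgeR adjusted p = 0.0680 to 0.0711). Deep libraries held 1313 to 2082 Smc2 counts, and with the UMI collision correction the deep change was -0.51 (SE 0.09, edgeR adjusted p = 0.00337). The shallow controls ranged from 119 through 173 to 356 CPM and shallow scKO libraries from 104 through 242 to 271 CPM, so the groups overlapped. The shallow value was 0.04 on the log2 scale (SE 0.25) and that over all libraries -0.09 (SE 0.19, edgeR adjusted p = 0.985 and 0.909).

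**Figure D2:**
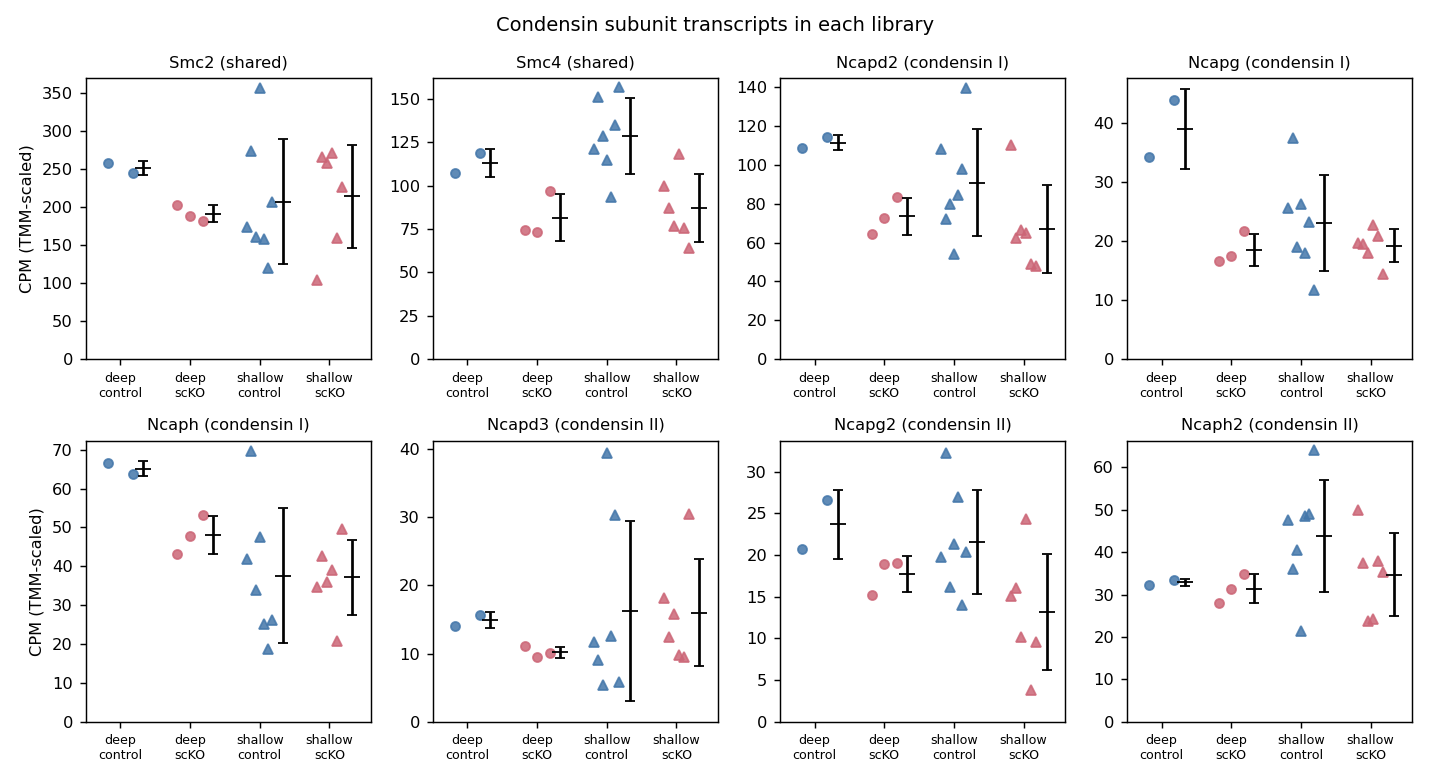
Level of each condensin gene (CPM, TMM-scaled, linear axis from 0) in every library, by depth class and group: circles are deep and triangles shallow libraries, blue is control and red scKO, and black bars give mean ± SD over 2 deep control, 3 deep scKO, 7 shallow control and 6 shallow scKO libraries. In the deep libraries the groups are apart for every gene but Ncaph2, and in the shallow libraries they overlap for all 8. Of all genes tested, 21.0% had every deep scKO library below both deep controls. In shallow libraries 0.101% had every scKO library below every control.

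Of the condensin I genes, Ncapg, which encodes a HEAT-repeat subunit, differed most in deep libraries. It lies on the plus strand of chromosome 5 (ENSMUSG00000015880; 45669919 to 45700546). Control 1 and 2, the deep controls, had 34.3 and 43.9 CPM, and deep scKO 6, 7 and 9 had 16.6, 17.5 and 21.7 CPM. The deep libraries therefore separated by group with a wide gap. In log2 terms the deep change was -1.10 (SE 0.16, edgeR adjusted p = 0.000787), and it passed in each of the 5 fits that left out a deep library, from -1.27 to -0.89. Shallow libraries held 4 to 29 Ncapg counts each, with 11.7 through 23.3 to 37.4 CPM in control and 14.4 through 19.6 to 22.7 CPM in scKO. Every shallow scKO library was below the shallow control mean, but the ranges overlapped (log2 fold change -0.32, SE 0.24, edgeR adjusted p = 0.830). Without control 4 that value was -0.15, and without the 4 libraries apart -0.51. The 3′ end of Ncapg overlaps Lcorl on the opposite strand, and whether the counting kept strands apart is not given in the sources used here, so reads of the pair cannot be told apart. Lcorl itself had 19.0 and 25.2 CPM in the deep controls and 22.7 to 27.1 CPM in the deep scKO libraries, which overlapped.

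Ncapd2, the other HEAT-repeat subunit of condensin I, fell in deep libraries as well. It is on the minus strand of chromosome 6 (ENSMUSG00000038252; 125168007 to 125191701). Among deep libraries, control 1 and 2 had 109 and 114 CPM and deep scKO 6, 7 and 9 had 64.5, 72.6 and 83.5 CPM, without overlap. The deep change was -0.62 on the log2 scale (SE 0.11) at an edgeR adjusted p of 0.00307. This call too held in each of the 5 fits without a deep library. Shallow controls ranged from 54.1 through 84.5 to 140 CPM and shallow scKO libraries from 48.1 through 63.6 to 110 CPM, so those groups overlapped. The highest value of each shallow group came from a library among the 4 that stood apart, control 9 and scKO 1. Over all libraries Ncapd2 had a log2 fold change of -0.48 (SE 0.16) at an edgeR adjusted p of 0.191, and without those 4 it had -0.53 (SE 0.13) at 0.0121.

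Ncaph, the kleisin of condensin I, lies on the minus strand of chromosome 2 (ENSMUSG00000034906; 127103809 to 127133954). Deep controls 1 and 2 had 66.6 and 63.7 CPM, and deep scKO 6, 7 and 9 had 43.2, 47.9 and 53.1 CPM. Ncaph thus fell in deep libraries (log2 fold change -0.45, SE 0.11, edgeR adjusted p = 0.0160), a call lost without control 1 or scKO 7 (edgeR adjusted p = 0.0603 and 0.0640). The shallow controls ranged from 18.7 through 33.8 to 69.7 CPM and shallow scKO libraries from 20.8 through 37.5 to 49.7 CPM, overlapping. On the log2 scale the shallow difference was -0.07 (SE 0.26, edgeR adjusted p = 0.967) and turned positive without control 4 or scKO 5 (0.17 and 0.05).

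The HEAT-repeat genes of condensin II gave few counts in shallow libraries, which limited the precision of their levels there. Ncapg of condensin I, with 4 to 29 counts, was as low. Ncapg2, the counterpart of Ncapg, is on the plus strand of chromosome 12 (ENSMUSG00000042029; 116405402 to 116463731). Of the deep libraries, control 1 and 2 had 20.7 and 26.6 CPM and deep scKO 6, 7 and 9 had 15.2, 18.9 and 19.0 CPM. The groups did not overlap but the difference did not pass (log2 fold change -0.44, SE 0.16, edgeR adjusted p = 0.0883), except without control 1 (-0.61, edgeR adjusted p = 0.0412). Without control 2 it was -0.23 (edgeR adjusted p = 0.492). In shallow libraries Ncapg2 had the lowest log2 fold change of the 7 genes tested, -0.73 (SE 0.31, unadjusted p = 0.0294, not called), on 6 to 25 counts per control and 2 to 15 per scKO library. Levels there ran from 14.0 through 20.4 to 32.3 CPM for controls and from 3.79 through 12.6 to 24.3 CPM for scKO, with 3 of 6 scKO libraries below every control.

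Ncapd3, the counterpart of Ncapd2, fell in deep libraries. It is on the plus strand of chromosome 9 (ENSMUSG00000035024; 27030175 to 27095315). Control 1 and 2, the deep controls, had 14.1 and 15.7 CPM and deep scKO 6, 7 and 9 had 11.1, 9.47 and 10.1 CPM (log2 fold change -0.57, SE 0.17, edgeR adjusted p = 0.0384). The deep groups did not overlap. The call was lost in 4 of the 5 fits without a deep library, those without control 1, control 2, scKO 7 or scKO 9 (edgeR adjusted p = 0.0573 to 0.187). In shallow libraries, with 2 to 24 counts each, Ncapd3 did not pass the count filter. Its shallow ranges overlapped, 5.41 to 39.4 CPM in control and 9.46 to 30.5 CPM in scKO.

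Ncaph2, the kleisin of condensin II, was the gene whose deep groups were not apart. It is on the plus strand of chromosome 15 (ENSMUSG00000008690; 89355719 to 89372826). Among deep libraries, control 1 and 2 had 32.3 and 33.4 CPM, and deep scKO 6, 7 and 9 had 28.1, 31.3 and 34.9 CPM. The highest deep value was thus from scKO 9 (log2 fold change -0.08, SE 0.13, edgeR adjusted p = 0.735). The shallow controls had 21.3 through 47.7 to 64.1 CPM and shallow scKO libraries 23.7 through 36.3 to 49.9 CPM, overlapping (log2 fold change -0.33, SE 0.24, edgeR adjusted p = 0.824). The 3′ end of Ncaph2 overlaps Sco2 and Tymp on the opposite strand. Tymp had 0 counts in all 18 libraries, and Sco2 had 12.9 and 16.0 CPM in the deep controls and 8.01 to 9.49 CPM in the deep scKO libraries, without overlap. The part of Sco2 reads in the Ncaph2 values was not tested.

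Counted within the depth classes, 6 of 8 condensin genes fell in deep libraries: all 3 of condensin I, both shared ATPases, and Ncapd3 of condensin II. Of all 13136 genes tested there, 7.03% were called lower and 7.31% higher, and 29.4% had an unadjusted p under 0.05, as did 7 of the 8. All 8 were negative, as were 50.2% of all genes, with a median log2 fold change of -0.47 against -0.00 for all genes. In 7 of 8 genes every deep scKO library was below both deep controls, where 21.0% of genes tested showed that. In shallow libraries edgeR called 0 of the 7 genes tested, with 2 at an unadjusted p under 0.05 (Smc4 and Ncapg2), and DESeq2 and limma-voom also called 0, while 0.0145% of 6906 genes were called lower and 0.0290% higher and 6.15% had an unadjusted p under 0.05. Of those 7 genes 6 were negative, against 54.2% of all genes. In 0 of the 8 was every shallow scKO library below every control, against 0.101% of genes tested. The deep count was 2 without scKO 7 (Ncapd2 and Ncapg), a fit whose share of all genes called is not given here.

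The size of the scKO difference was also compared between the classes, as the interaction of group and depth class. No condensin gene passed (edgeR adjusted p = 0.753 to 0.987, with 0 calls by DESeq2), and edgeR called 0 of all 7662 genes, so 0% in either direction. Ncapg had the lowest p, with a deep minus shallow difference of -0.74 in log2 fold change (SE 0.32, unadjusted p = 0.0276), and was the only one of the 8 with an unadjusted p under 0.05, against 6.17% of all genes. The difference was negative for 5 of the 8 and for 49.3% of all genes. For Smc2 that difference was -0.44 (SE 0.42), and for Ncapg2 and Ncaph2 it was 0.32 (SE 0.39) and 0.25 (SE 0.33). With errors of this size, a difference between the classes was not detectable for any of the 8 after adjustment.

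Condensin I and condensin II were then set side by side in each library, as the mean log2 CPM of the 3 subunits particular to each, relative to the controls of the same depth class. In deep scKO 6, 7 and 9 the condensin I level was -0.85, -0.72 and -0.51 and the condensin II level -0.41, -0.33 and -0.24. In each of these 3 libraries condensin I was the lower, by a mean of -0.37 ± 0.09 log2 units (SD, n = 3). The 2 deep controls lay 0.03 above and 0.03 below 0, evenly because 0 is their own mean. The SD of the scKO libraries leaves out the error of that baseline of 2 controls. By gene, Ncapg (deep log2 fold change -1.10) and Ncaph2 (-0.08) lay farthest apart, and both overlap a counted gene on the opposite strand. Ncapd2 (-0.62) and Ncaph (-0.45) lay close to Ncapd3 (-0.57) and Ncapg2 (-0.44). In shallow scKO libraries condensin I was at -0.19 ± 0.21 (SD, n = 6) and condensin II at -0.31 ± 0.37 (SD, n = 6). The difference, 0.12 ± 0.25 (SD, n = 6), was below 0 in 2 of those 6 libraries and ran from -0.49 to 0.51 in the 7 shallow controls. Over all 9 scKO libraries it was -0.04 ± 0.31 (SD, n = 9), smaller than its spread between libraries. Without the 4 libraries that stood apart the shallow difference turned to -0.09 and the difference over all libraries came to -0.20, both still smaller than their SD between libraries (0.26 and 0.25). These are descriptions of genes chosen with results known and carry no test.

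**Figure D3:**
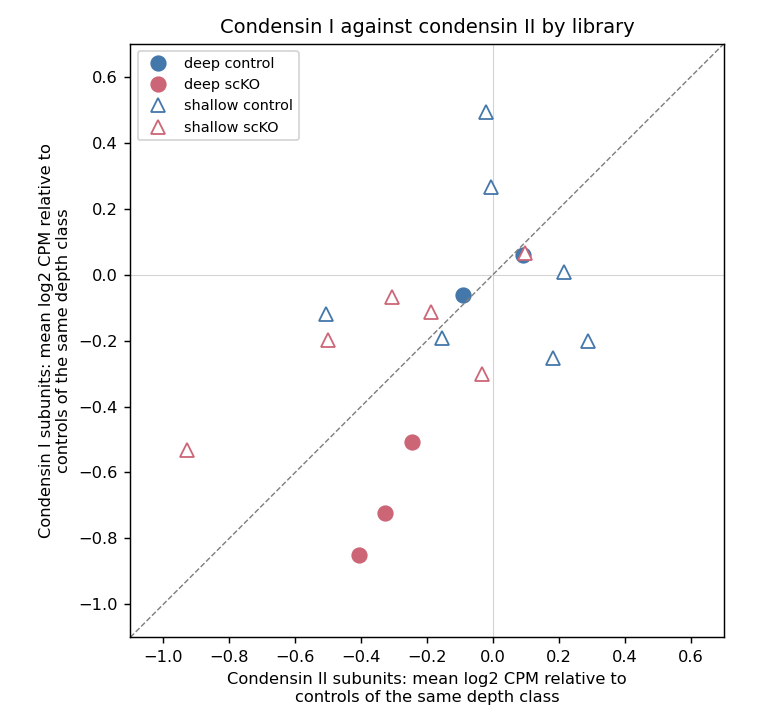
Mean log2 CPM of the 3 condensin I subunits (vertical axis) against that of the 3 condensin II subunits (horizontal axis), each relative to the mean of the controls of the same depth class, with 1 point per library; the dashed line marks equal change. The 3 deep scKO libraries lie below the line, at -0.85 to -0.51 for condensin I, and the shallow libraries of both groups scatter on both sides of it.

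Genes that work with condensin also fell in the deep libraries. A list of 20 held kinases, cyclins and chromosomal proteins known to regulate condensin or to bind mitotic chromosomes beside it. In deep libraries all 20 had negative log2 fold changes (median -0.63) and 15 fell, against the 7.03% of genes called lower. Among them were Kif4, a chromokinesin that binds condensin I (-0.87, SE 0.10), Top2a, the topoisomerase that untangles sister chromatids (-0.43, SE 0.11), and Cdk1 and Aurkb, kinases that phosphorylate condensin subunits (-0.58 and -0.76). Mcph1, an inhibitor of condensin II, fell by 0.55 on the log2 scale. Top2b, the related topoisomerase that non-dividing cells also make, had -0.02 (SE 0.09, edgeR adjusted p = 0.927). Over all 18 libraries 16 of the 19 tested were negative (median -0.38) and 1 fell, Kif4 (-0.64, SE 0.14, edgeR adjusted p = 0.0345), with 13 at an unadjusted p under 0.05. Aurka, Ccna2 and Top2a had the next smallest p, with log2 fold changes of -0.61, -0.48 and -0.38. Without the 4 libraries that stood apart 11 of 19 fell, where 4.09% of all genes were called lower. The Kif4 call was lost without control 1, 2, 3 or 4 or scKO 3, 5, 6, 7, 8 or 9, where 0 partners were called, while the count was 2 without control 7 or 8 and 6 without scKO 1. The shares of all genes called in these fits are not given here, so the counts only describe how the calls moved. DESeq2 called 8 lower, against 2.94% of all genes. With the group alone, log2 total as covariate, the replicate block or thinned counts, 0 were called, without the share of all genes beside them. In shallow libraries edgeR called 0 of 18, where 0.0145% of 6906 genes were called lower and 0.0290% higher. At an unadjusted p under 0.05 in edgeR there were 4, against 6.15% of all genes, and DESeq2 and limma-voom called 0. Phf8, a histone demethylase, and Kmt5a, which methylates histone H4, had shallow log2 fold changes of 0.66 and 0.55 (edgeR adjusted p = 0.619 and 0.777). In deep libraries they had -0.10 and -0.31 (edgeR adjusted p = 0.604 and 0.0303), so Kmt5a was among the genes called lower there.

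Genes of the related SMC complexes were examined in the same fits. Of 17 genes of the cohesin ring and its regulators, 4 fell in deep libraries, against the 7.03% of genes called lower there: Cdca5 (sororin), the shugoshin Sgo1, the separase Espl1 and the acetyltransferase Esco2, with log2 fold changes of -1.17, -0.81, -0.76 and -0.89. The ring subunits Smc1a, Smc3 and Rad21 were not called, nor were Pttg1, the securin that holds separase inactive (0.09), and the acetyltransferase Esco1 (0.54). The cohesin median was -0.13 in deep libraries and -0.09 over all 18, where edgeR called 0 of 13, with 5 at an unadjusted p under 0.05 against 11.9% of all genes. Over all 18, DESeq2 called 2, where 2.94% of all genes were called lower, and limma-voom called 1, with its share of all genes not given here. Lowest in edgeR p over all 18 were Sgo1, Espl1, Pds5a and Smc3 (log2 fold change -0.54, -0.69, -0.42 and -0.33). Of 7 genes of the SMC5/6 complex and Smchd1, Nsmce4a fell in deep libraries (-0.42, SE 0.10, edgeR adjusted p = 0.0159), 1 of the 7 where 7.03% of all genes were called lower. Over all libraries 6 of 6 tested were negative (median -0.20), and the lowest edgeR adjusted p was 0.369, for Smc6 (-0.23).

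**Figure D4:**
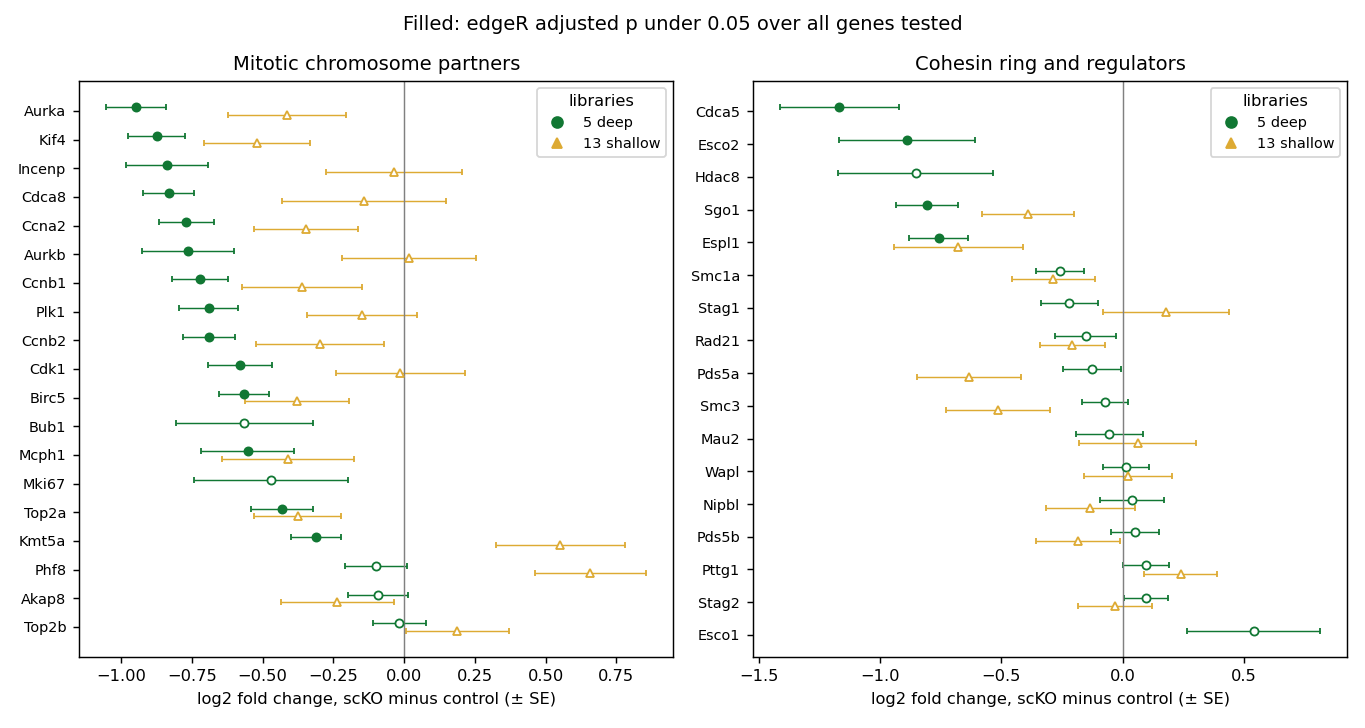
Log2 fold changes (scKO minus control, bars of 1 SE) in the 5 deep (green circles) and 13 shallow libraries (yellow triangles) for 19 genes of the condensin partner list and the 17 of the cohesin list, ordered by the deep value; filled symbols passed an edgeR adjusted p of 0.05. In deep libraries 14 of the 19 partners shown and 4 of 17 cohesin genes are filled, and no shallow symbol is.

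Across the 18 libraries, after each depth class was centred on its mean, the genes most like the mean of the 8 condensin genes were Lig1, the DNA ligase of replication (Pearson r = 0.89), Ccna2, cyclin A2 (0.84), Kif4 (0.84), Racgap1, which acts in cytokinesis (0.82), and Mms22l, which protects replication forks (0.81). The median r of all other genes tested was -0.01. For the 3 condensin I genes the closest were Mms22l (0.90), Kif4 (0.89), Aurka (0.88), Lig1 (0.87) and Pclaf (0.84). For the 3 condensin II genes they were Cenpu (0.82), Ttll4 (0.81), Itpr3 (0.80), Ppp5c (0.80) and Ptgs2 (0.79). Both groups were centred together, so the difference between scKO and control is part of each r. These points share libraries and depth, and the condensin II mean rests on few counts in shallow libraries, as does Ncapg within the condensin I mean.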

How the data were processed

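The authors deposited 1 table of raw UMI counts per gene for 18 libraries, per the labels and the values, which are whole numbers. HISAT2 and HTSeq are named without versions in the submitters' processing notes, which also name the rat build Rnor 6.0 although the identifiers are mouse Ensembl genes. The library kit, strand and annotation release are not given in the sources used here. Of 50689 features, 50376 matched a symbol. The others held 0.0410% of counts. Gene models were GENCODE M21 (GRCm38).

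After filterByExpr by group and TMM scaling, scKO was tested against control by robust quasi-likelihood in edgeR 4.0.16 (R 4.3.3), with Benjamini-Hochberg adjustment over all genes tested. The main model had group and depth class. Deep and shallow libraries were also fitted apart, and an interaction was tested. SE is the absolute log2 fold change divided by the root of F. Log2 CPM used a prior count of 2. DESeq2 1.42.0 and limma-voom (limma 3.58.1) were alternatives, beside other filters, scaling, covariates, thinned counts, UMI collision correction and left-out libraries. The collision correction took 4096, also the highest count in the table, as the number of possible identifiers. The sources used here do not give the length of the identifiers. The edgeR fits were also run on simulated data, and the outcome is not given here. Counts of 3 or fewer, taken as the floor, correspond to 0.501 to 7.14 CPM of the raw total.

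The members, lists, depth classes, models and tests were chosen with earlier results of these data known. Named genes were the 8 members, list members called over all libraries or otherwise the 4 with the smallest p, and the 5 genes with the most similar profile. Other genes named for the deep or shallow libraries were chosen after their values were seen, as were the alternatives for the partner list and the interaction without a count filter. The partner list's counts cover 20 genes, of which 1 is not reported here by name.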

Additional observations from a re-analysis of the deposited data

How the results depend on the processing

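The number of condensin genes called over all 18 libraries, 2, was not stable. It was 0 with the group alone, with log2 total as covariate, with a filter of at least 10 counts in 9 libraries, and with counts thinned to 420197 per library (group alone or with the depth class, 5 genes tested). DESeq2 with the depth class called 4 (Ncapd2, Ncapg, Ncapg2 and Smc4; 2.94% of all genes were called lower), and leaving out each library in turn gave 0 to 3. For the fits other than DESeq2 the share of all genes called is not given here. Their counts therefore only describe how the condensin calls moved. Replicate numbers are shared by the groups but mark no stated pairing: same-numbered libraries correlated at -0.07 to 0.25 in their deviations, 5 of 9 pairs over 0.1, and 2 of 9 controls matched their own number best. With the replicate block 0 condensin genes were called, and edgeR called 14 genes in all (8 higher and 6 lower) against 52 without it.

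Over all libraries 7 of the 8 genes stayed negative in every alternative that tested them, and Smc2 ran from -0.16 to 0.026 over the fits without a library, above 0 only without control 6. In shallow libraries Ncaph ran from -0.17 to 0.17 over the fits without a library, positive without control 4 or scKO 5, and was -0.36 without the 4 libraries apart. There Smc2, 0.04 with all shallow libraries, ran from -0.059 to 0.23 over the fits without a library and was -0.027 without the 4 libraries apart. In deep libraries all 8 stayed negative in every alternative run, and the count of 6 ran from 2 to 5 when a library was left out and was 5 or 6 otherwise. Shares of all genes called in those deep alternatives are not given here. The condensin I minus condensin II difference stayed between -0.42 and -0.33 in deep libraries. Without the 4 libraries apart it moved from -0.04 to -0.20 over all libraries and from 0.12 to -0.09 in shallow ones. The cause of these changes was not tested, apart from the genes that thinning leaves untested. Shallow counts were as low as 2 for Ncapd3 and Ncapg2 and 4 for Ncapg.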

Other observations

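Over 28 pairs of genes the Pearson r of class-centred log2 CPM ran from -0.68 to 0.71 over 18 libraries, with a median of 0.13, against -0.01 for the members with all other genes. The difference between scKO and control is part of these values, because both groups were centred together. Without control 7, 8 and 9 and scKO 1 the median was 0.38 over 14 libraries, with a range of -0.69 to 0.80. The highest was between Ncapd2 and Ncaph2 (0.71, and 0.43 without those 4 libraries). Ncapd2 with Smc4 had 0.70 and Ncapg2 with Smc4 0.67, or 0.72 and 0.79 without them, and Ncapg with Smc4 had 0.48, or 0.80 without them.

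Smc2 and Ncaph2 ran in opposite directions, with r = -0.68 over 18 libraries, -0.72 over the 13 shallow ones and -0.69 over the 14 left without the 4 that stood apart. Control 6 had the highest shallow Smc2 (356 CPM) and the lowest shallow Ncaph2 (21.3 CPM). The 4 libraries apart had 48.6 to 64.1 CPM of Ncaph2, above all 9 other shallow libraries (21.3 to 47.7 CPM), and 104 to 207 CPM of Smc2 against 159 to 356 CPM. These points share library and depth and hold the difference between the groups, and Ncaph2 had 13 to 41 counts in shallow libraries.

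Per kilobase of merged exons, Smc2 was the most abundant condensin gene in deep controls (45.8 CPM per kilobase), followed by Smc4 (21.7), Ncapd2 (17.8), Ncaph (15.1), Ncaph2 (7.83), Ncapg (5.53), Ncapg2 (2.38) and Ncapd3 (1.89). In deep scKO libraries Ncapg stood at 2.63 and Ncaph2 at 7.48 CPM per kilobase. Whether these counts scale with transcript length depends on the library kit, which is not given in the sources used here.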
